A study of Mus musculus with 4 samples.

Results

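Med13 encodes MED13, a subunit of the kinase module of Mediator. In 2 CLIP-seq peak lists from mouse embryonic fibroblasts its RNA carried 84 peaks, 44 of SRSF1 and 40 of SRSF2, out of 50983 SRSF1 and 56336 SRSF2 peaks. The peaks were taken as those whose host unit is the RefSeq transcript of Med13, which lies on the minus strand of chromosome 11. They ran from 86083798 to 86171006 on mm9, a span of 87.2 kb. The gene was chosen by its number of listed peaks in these libraries, so the counts, and the overlaps and spacings that follow from the same peaks, describe it and were not tested.

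CLIP-seq uses ultraviolet light to link a protein to the RNA it touches, precipitates the protein and sequences the attached RNA fragments. A peak marks a stretch where such fragments piled up. SRSF1 (also SF2/ASF) and SRSF2 (also SC35) were each precipitated through an HA tag with an anti-HA antibody. The SRSF1 library came from the SRSF1 tet-repressible fibroblasts and the SRSF2 library from the SRSF2 tet-repressible fibroblasts, both kept without tetracycline. With 1 library per protein, each from its own line, protein and cell line cannot be told apart and no value has a replicate error. SRSF1 libraries given a control siRNA or siRNA against SRSF2 were not analysed here. The study asked where these proteins cooperate or compete in splicing.

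Mediator is a large complex that carries signals from transcription factors at enhancers to RNA polymerase II at promoters. Its kinase module consists of MED12, MED13, the kinase CDK8 or its paralog CDK19, and cyclin C. MED13 holds the module to the core of the complex, and the module can block the contact of Mediator with the polymerase. SRSF1 and SRSF2 are SR proteins: an RNA recognition motif contacts short exonic elements, and a domain rich in arginine and serine helps to recruit the splicing machinery. Purine-rich elements such as GGAGA and GAAGAA are classic SRSF1 binding sequences.

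The RefSeq-linked GENCODE transcript of Med13 has 30 exons, joined into an mRNA of 10546 nt, of which 3956 nt are 3′ untranslated. Exons make up 11.6% of the gene. These are lengths from GRCm38, a later build than that of the peaks, so no peak was placed in an exon, an intron or an untranslated region, and no sequence under a peak was read. In that mRNA, 18 GGAGA and 9 GAAGAA sites were found on the sense strand, which is 1.71 and 0.853 per kb. Across 19349 genes with an mRNA of at least 1000 nt the medians were 1.91 and 0.710 per kb, so both densities were near the middle, above those of 42.0% and 59.1% of the genes. The GGAGA letters occurred in 97.4% and the GAAGAA letters in 83.5% of these mRNAs.

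Med13 was among the most heavily marked of the genes with a symbol. Of 94 such genes with at least 30 listed peaks, 4 had more than its 84. Its SRSF1 share of 52.4% (exact 95% binomial interval 41.2 to 63.4, n = 84 peaks) stands beside 47.5% in the whole series and 47.6% on chromosome 11. Density along the mRNA was not measured. Per 10 kb of span, introns included, the peaks were no denser than usual, at 9.63 against a median of 9.60 over the 94 genes. They were also thin: the 44 SRSF1 peaks covered 761 nt, the 40 SRSF2 peaks covered 711 nt, and together they covered 1.37% of the span. Intervals throughout cover counting error only, and neighbouring peaks are not independent.

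**Figure D1:**
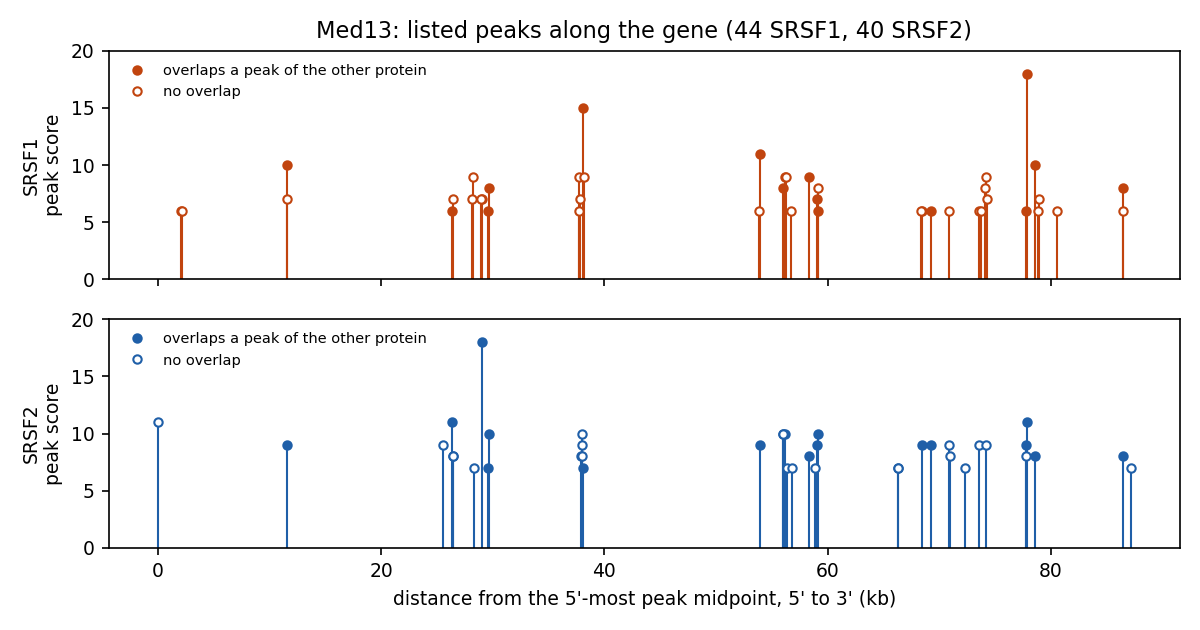
Each stem is a listed peak of Med13 at its distance from the 5′-most peak midpoint (x axis, kb, 5′ to 3′), with the authors' score on the y axis, SRSF1 above and SRSF2 below; filled circles overlap a peak of the other protein. The peaks of both proteins stand in the same clumps, separated by empty stretches of up to 15.7 kb, and the highest score is 18 in both lists at different places.

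The first mark at the 5′ side was an SRSF2 peak at 86170988 to 86171006 with a score of 11. The first SRSF1 peak, 86168958 to 86168971 with a score of 6, lay 2.03 kb further along the RNA. At the 3′ side the last SRSF2 peak was 86083798 to 86083817 (score 7) and the last SRSF1 peak 86084490 to 86084495 (score 6). Both proteins thus had peaks over nearly the whole span, 84482 nt for SRSF1 and 87209 nt for SRSF2.

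The 3′ part of the gene held more of the peaks, by like amounts for both proteins. When the span was cut into 10 equal parts, the 5 parts on the 3′ side held 27 SRSF1 peaks (61.4%) and 25 SRSF2 peaks (62.5%). The median distance from the 5′-most midpoint was 56495 nt for SRSF1 and 56551 nt for SRSF2. From 5′ to 3′ the 10 parts held 2, 2, 0, 8, 5, 0, 10, 3, 8 and 6 SRSF1 peaks. The same parts held 1, 1, 1, 7, 5, 0, 10, 4, 8 and 3 SRSF2 peaks. In no part did the numbers differ by more than 3 peaks, and the sixth part was empty in both lists.

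**Figure D2:**
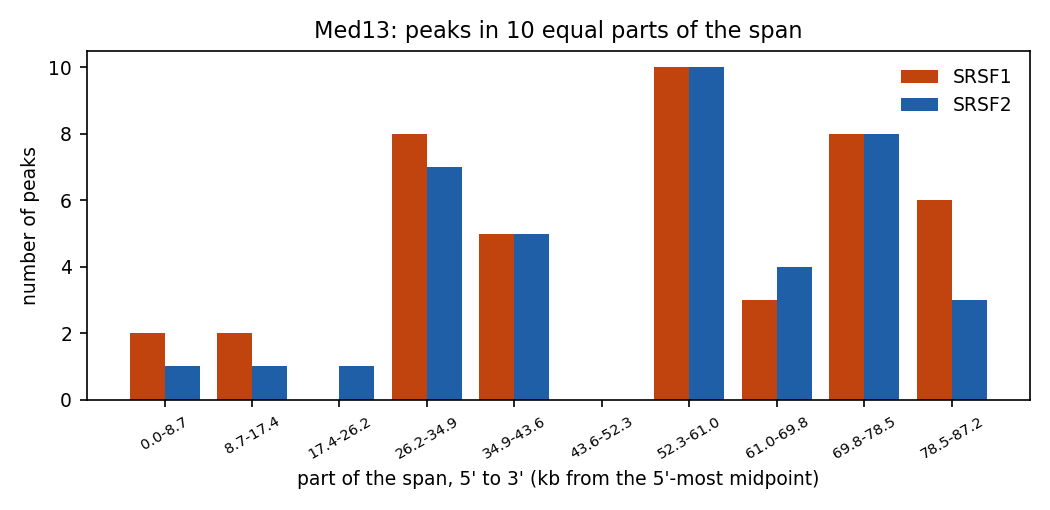
Bars give the number of SRSF1 and SRSF2 peaks (y axis) in 10 equal parts of the span of Med13 peaks from 5′ to 3′ (x axis, kb from the 5′-most midpoint). Both proteins reach their highest number, 10, in the seventh part and have none in the sixth.

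Long stretches of the gene held no listed peak of either protein. The 3 longest made up 44.8% of the span. In order along the RNA, a stretch of 9348 nt separated the SRSF1 peak at 86168819 to 86168828 from the one at 86159465 to 86159470. Another of 13991 nt lay between the SRSF1 peak at 86159427 to 86159453 and the SRSF2 peak at 86145409 to 86145435. The longest, 15747 nt, lay between the SRSF1 peaks at 86132854 to 86132869 and 86117101 to 86117106. The next 2 measured 8052 nt, between the second and the longest, and 7154 nt, 3′ of the longest.

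The gaps can be set beside the intron lengths of the GENCODE transcript, which has 29 introns. Its longest is intron 3 with 13831 nt, followed by intron 9 with 10435 nt, intron 2 with 9245 nt and intron 8 with 7770 nt. Taken from 5′ to 3′, introns 2, 3 and 8 had 9245, 13831 and 7770 nt, while the first 3 of the 5 longest empty stretches had 9348, 13991 and 8052 nt. The next intron of that size in order, intron 9 with 10435 nt, does not have the length of the next stretch, 15747 nt. Whether these stretches are those introns was not tested, because the lengths come from different builds.

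Between the gaps the peaks stood in tight groups. Joining midpoints no more than 500 nt apart gave 24 groups with a median of 3 peaks and a median length of 84 nt, the longest being 835 nt. Of these, 17 groups (70.8%, interval 48.9 to 87.4) held both proteins, and they contained 75 of the 84 peaks. SRSF1 stood alone in 2 groups and SRSF2 in 5, and 5 of these 7 groups were single peaks that could hold only 1 protein. An overlap between the proteins was present in 14 groups. No share of groups with both proteins from the whole lists or from other genes stands beside these values, so they describe Med13 only.

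Within a list the spacing was wider for SRSF2. Neighbouring SRSF1 midpoints had a median distance of 271 nt (18 to 15758), and 25 of the 43 distances were at most 500 nt. Neighbouring SRSF2 midpoints had a median distance of 628.5 nt (14.5 to 15801.5), and 17 of 39 were at most 500 nt. The lists do not hold every numbered peak: 12 of the 56 SRSF1 numbers and 7 of the 47 SRSF2 numbers of Med13 are missing, which bears on both spacings.

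The groups are numbered here from 5′ to 3′. The first 4 were sparse: the lone SRSF2 peak, 2 SRSF1 peaks of score 6 (86168819 to 86168971), a group with 2 SRSF1 and 1 SRSF2 peak at 86159427 to 86159470, and a lone SRSF2 peak of score 9 at 86145409 to 86145435. Groups 5 to 8 followed closely, between 86141323 and 86144663, with 8 SRSF1 and 7 SRSF2 peaks. Group 7 there held the highest SRSF2 score of the gene, 18, on 86141976 to 86142002. In group 8 both SRSF1 peaks were overlapped, each by 1 of the SRSF2 peaks.

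Group 9 (86132854 to 86133273) held most peaks of any group, 5 of each protein within 420 nt. The order along the RNA was 3 SRSF1 peaks, then 4 SRSF2 peaks, and then the strongest SRSF1 peak of the group, 86132871 to 86132906 with a score of 15. An SRSF2 peak of only 6 nt and score 7 lay inside this one, and a last SRSF1 peak of score 9 followed. Only 1 peak of each protein overlapped here. The other 4 peaks of each protein occupied neighbouring, not shared, stretches.

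Group 11 (86114210 to 86115044) was the longest, with 4 SRSF1 and 5 SRSF2 peaks. Of these, 2 pairs overlapped, among them the SRSF1 peak at 86114796 to 86114826 and the SRSF2 peak at 86114796 to 86114822, which end 4 nt apart on one side and coincide on the other. Groups 10, 12 and 13 lay on either side of it, and all 3 contained overlaps. The SRSF1 peak of group 10, 86117072 to 86117097 with a score of 11, enclosed an SRSF2 peak of score 9.

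Groups 14 and 18 held SRSF2 alone, with 2 peaks of score 7 (86104664 to 86104705) and 1 of score 7 (86098681 to 86098688). Group 19 (86096740 to 86097443) held 5 SRSF1 and 2 SRSF2 peaks and no overlap at all, although SRSF2 midpoints came within 24 and 38 nt of SRSF1 midpoints. Group 17 (86100021 to 86100145) and group 6 (86142677 to 86142846) likewise held both proteins without an overlap. Group 22 was a lone SRSF1 peak of score 6 at 86090412 to 86090426.

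**Figure D3:**
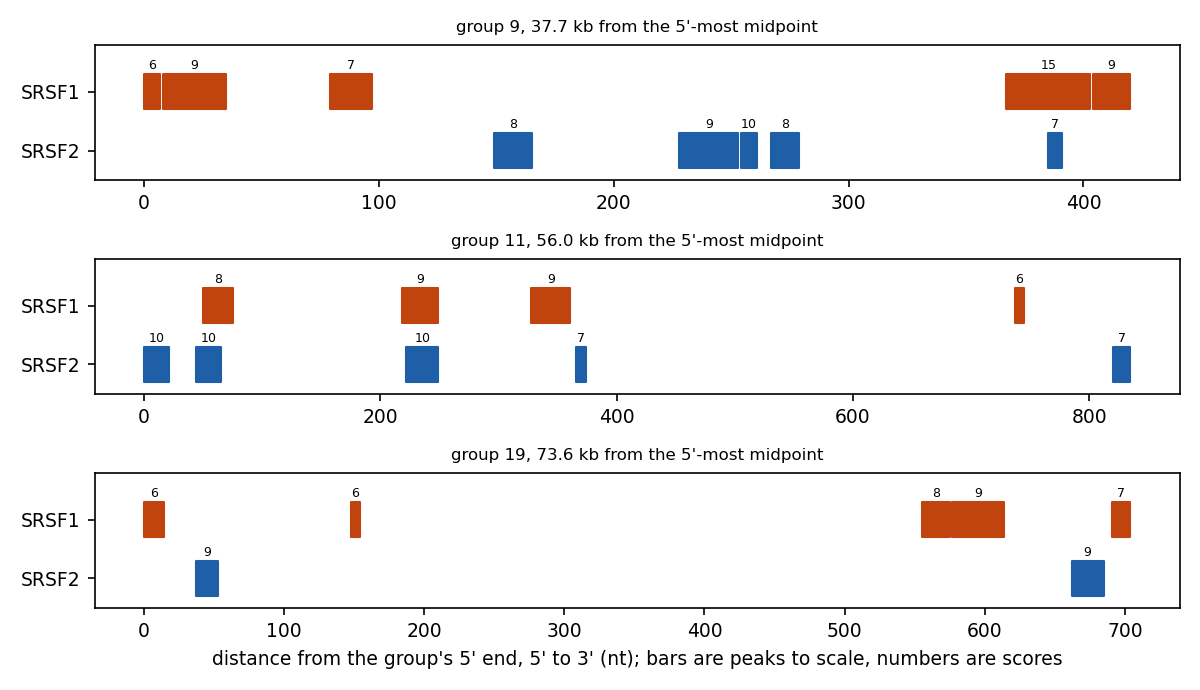
Bars are the peaks of groups 9, 11 and 19 to scale, SRSF1 above SRSF2, along the distance from each group's 5′ end (x axis, nt), with the authors' scores above them. In group 9 a run of 4 SRSF2 peaks sits between SRSF1 peaks, group 11 has 2 overlapping pairs, and group 19 has none.

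The scores of single peaks were modest, and the lowest score on Med13 differed between the lists, although both whole lists began at 4. No source used here says what the score measures, so it ranks peaks within a list, and across lists it only orders the pairs below. SRSF1 peaks on Med13 scored 6 to 18 with a median of 7, and SRSF2 peaks 7 to 18 with a median of 9, where both whole lists had a median of 8. At the lowest score stood 18 of the 44 SRSF1 peaks and 10 of the 40 SRSF2 peaks. The 5 highest SRSF1 scores were 18 (86093111 to 86093141), 15 (86132871 to 86132906), 11 (86117072 to 86117097) and 10 (86159427 to 86159453 and 86092400 to 86092423). The score of 18 was above 94.2% of the SRSF1 list.

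In the SRSF2 list the score of 18 (86141976 to 86142002) was above 92.4% of all peaks. It was followed by 3 peaks of score 11, at 86170988 to 86171006, 86144642 to 86144663 and 86093110 to 86093138. The fifth place was shared by 6 peaks of score 10. The top sites of the proteins were thus different: the SRSF2 peak of score 18 covered an SRSF1 peak of score 7, and the SRSF1 peak of score 18 was overlapped by an SRSF2 peak of score 11.

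With at least 1 shared nt required, fewer than 50% of the peaks of either protein lay on a peak of the other, while other definitions moved the shares to both sides of 50%. Of the SRSF1 peaks, 18 of 44 were overlapped by SRSF2 by at least 1 nt on the same strand (40.9%, interval 26.3 to 56.8), against 38.7% of all SRSF1 peaks. Of the SRSF2 peaks, 18 of 40 were overlapped by SRSF1 (45%, 29.3 to 61.5), against 35.2% of all SRSF2 peaks. No difference from the whole lists was tested. The peaks shared 278 nt in all.

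Where the proteins overlapped, their midpoints lay close together. The overlapped peaks were 6 to 36 nt wide for SRSF1 and 6 to 33 nt for SRSF2, so the required overlap itself keeps midpoints close. No like value over all overlapping pairs of the series stands beside the following ones. The 18 pairs were one to one, with a median distance of 2.25 nt between midpoints and at most 9.5 nt, and in 13 pairs the shorter peak lay wholly inside the longer. The shared stretch ranged from 2 to 28 nt, and a single pair shared less than 50% of the shorter peak. That pair was 86084568 to 86084584 for SRSF1 and 86084564 to 86084569 for SRSF2, near the 3′ end of the span.

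Ranked by the smaller of both scores, the leading pair was the SRSF1 peak at 86093111 to 86093141 (score 18) with the SRSF2 peak at 86093110 to 86093138 (score 11), sharing 28 nt. The next 3 had a smaller score of 9. They were 86117072 to 86117097 (score 11) with SRSF2 at 86117074 to 86117094 (score 9), 86159427 to 86159453 (score 10) with SRSF2 at 86159432 to 86159449 (score 9), and 86114796 to 86114826 (score 9) with SRSF2 at 86114796 to 86114822 (score 10). The fifth place was shared by 5 pairs with a smaller score of 8. First among these by SRSF1 score was 86092400 to 86092423 (score 10) with SRSF2 at 86092400 to 86092415 (score 8). The leading pairs were spread from 11.6 to 78.6 kb from the 5′-most midpoint. This order treats the scores of both lists as if on the same scale, which is not known, so it serves only to pick pairs.

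Scores within the 18 pairs did not move together, with a Spearman rho of −0.125, where all 20654 overlapping pairs of the series had 0.620. Pairs on 1 gene share its library depth and RNA level and cover a narrow range of scores, so the first value is a description of these pairs.

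Overlapped SRSF1 peaks scored 6 to 18 (median 8, 18 peaks), and those without an overlap 6 to 9 (median 7, 26 peaks). All 5 SRSF1 peaks of score 10 or more were overlapped, as were 7 of the 10 SRSF2 peaks of score 10 or more. Over the whole lists 38.7% of SRSF1 and 35.2% of SRSF2 peaks of any score were overlapped. No whole-list share at score 10 or more stands beside these counts, so they describe Med13 only. Overlapped SRSF2 peaks scored 7 to 18 (median 9, 18 peaks), and those without an overlap 7 to 11 (median 8, 22 peaks). Overlapped peaks were also wider, with medians of 23 against 14 nt for SRSF1 and 21 against 16.5 nt for SRSF2, and the part of width in the overlap was not tested.

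The other protein was within 100 nt of most peaks, overlapped ones included. The nearest SRSF2 midpoint was at most 50 nt away for 27 of the 44 SRSF1 peaks (61.4%, 45.5 to 75.6), against 48.6% of the whole list, and at most 100 nt away for 33 (75%, 59.7 to 86.8), against 54.7%. The nearest SRSF1 midpoint was at most 50 nt away for 24 of the 40 SRSF2 peaks (60%, 43.3 to 75.1), against 45.5%, and at most 100 nt away for 29 (72.5%, 56.1 to 85.4), against 52.1%. One of these 24 is the 5′-most SRSF2 peak, whose partner lies outside the Med13 unit. Among the peaks without an overlap, 15 of 26 SRSF1 peaks and 11 of 22 SRSF2 peaks had the other protein within 100 nt. The 11 include that 5′-most peak. Such peaks were thus 15 of all 44 SRSF1 and 11 of all 40 SRSF2 peaks of Med13. In the whole lists they were 8151 of 50983 SRSF1 and 9498 of 56336 SRSF2 peaks. Over all Med13 peaks the median distance was 24.75 nt for SRSF1 and 30.25 nt for SRSF2, against 57.5 and 78.5 nt over the whole lists.

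Isolated peaks were few. The nearest SRSF2 midpoint was over 500 nt away for 3 SRSF1 peaks (6.82%, 1.43 to 18.7), against 35.6% of the whole list. The nearest SRSF1 midpoint was over 500 nt away for 5 SRSF2 peaks (12.5%, 4.19 to 26.8), against 37.5%. The whole lists include genes with few peaks, and how the number of peaks in a gene bears on these shares was not tested. No share over 500 nt among genes with many peaks stands beside these values. Among the 94 genes with at least 30 peaks the median shares within 50 nt were 67.0% for SRSF1 and 62.5% for SRSF2, above the 61.4% and 60% of Med13.

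**Figure D4:**
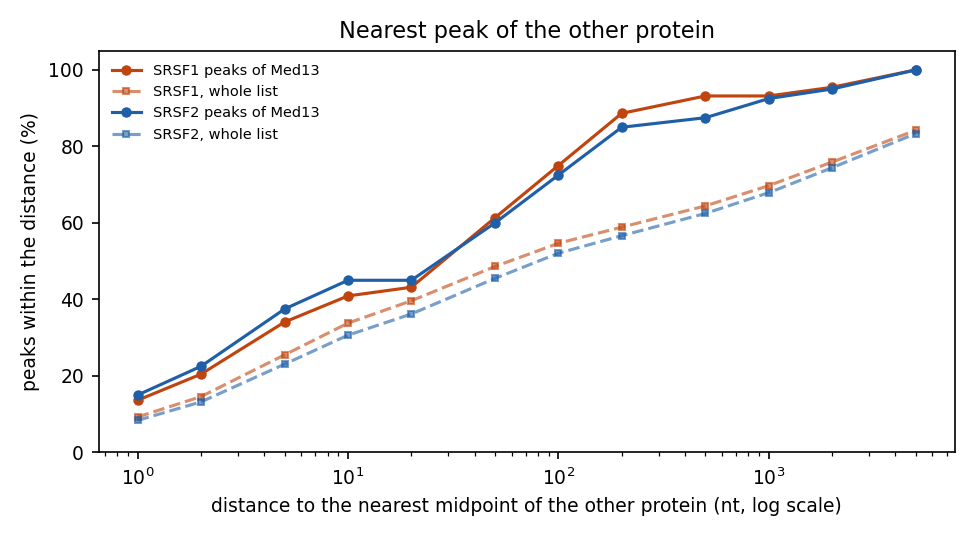
Curves give the share of peaks (y axis, %) whose nearest midpoint of the other protein lies within a distance (x axis, nt, log scale), solid for Med13 and dashed for each whole list. The Med13 curves lie above those of the lists and reach 75% (SRSF1) and 72.5% (SRSF2) at 100 nt.

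Among peaks that lay within 100 nt without touching, SRSF2 stood more often on the 3′ side of SRSF1 than on its 5′ side. Of 15 such SRSF1 peaks, 12 had their nearest SRSF2 midpoint downstream in the RNA and 3 upstream. Of 11 such SRSF2 peaks, 8 had their nearest SRSF1 midpoint upstream and 3 downstream. In the whole lists the downstream share was 51.5% of 8151 such SRSF1 peaks, and the upstream share was 51.1% of 9498 such SRSF2 peaks. Most of the 8, but only part of the 12, are the same neighbours counted from each side, and several of these peaks share a partner. For others of the 12 the nearest SRSF2 peak itself overlapped another SRSF1 peak. An example is the SRSF1 peak at 86159465 to 86159470, whose nearest SRSF2 peak, 86159432 to 86159449, overlapped the SRSF1 peak at 86159427 to 86159453. Among the 8 is the 5′-most SRSF2 peak, whose partner lies outside the Med13 unit. The order was noticed in these peaks, and it was not tested. Within the 18 overlapping pairs, SRSF2 lay downstream in 10 and upstream in 7.

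Immediately upstream of the first Med13 peak, both lists continued in a unit that the authors called nongenic. Its first peaks began 21 nt beyond the 5′-most Med13 peak on the same strand, at 86171028 to 86171041 for SRSF1 (score 6) and 86171028 to 86171060 for SRSF2 (score 7). Up to 86171740 the unit held 4 SRSF1 and 5 SRSF2 peaks, of which 4 and 4 were overlapped. It enters none of the counts for Med13, and whether its RNA belongs to the Med13 transcript was not tested. On the opposite strand the lists held 0 peaks within the span of Med13, and on the same strand 0 peaks of another unit. At the 3′ side the next unit, an unnamed cluster on the same strand, had its nearest peak 13797 nt beyond the last Med13 peak.

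The other named subunits of Mediator carried far fewer peaks than Med13. Of 33 genes of the complex in a list that includes Med13, 8 had a named unit with a peak, where 9.75% of 21900 protein-coding genes of the RefSeq table had one. Without Med13 the 7 others together had 8 SRSF1 and 9 SRSF2 peaks, with 1 to 5 peaks a gene, against a median of 4 over all 2155 named genes. No other gene of the kinase module, Med12, Med12l, Med13l, Cdk8, Cdk19 or Ccnc, had a named peak. Named units hold 15.9% of all peaks, and the rest lie mostly in clusters without a gene name and in regions called nongenic, so a gene that is missing here may still have been bound.

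In the head of Mediator, which contacts the polymerase, 4 of 12 genes had peaks. Med8 and Med17 had 2 SRSF1 and 1 SRSF2 peak each, Med22 had 1 and 2, and Med11 had 0 and 1. In the middle part 3 of 8 genes had peaks, with Med10 at 2 SRSF1 and 3 SRSF2 peaks, Med4 at 1 and 0, and Med21 at 0 and 1. Med10 had 1 overlapping pair, and the other 6 genes had none. None of the 6 genes of the tail, which meets the transcription factors, had a named peak. Over all protein-coding genes the share was 9.75%. With so few genes in each part, no difference between the parts or from that share was tested.

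Among genes of RNA polymerase II itself, 4 of 12 had a named unit with a peak, beside the same 9.75% over all protein-coding genes. No difference from that share was tested. Polr2e and Polr2f had 4 SRSF1 and 6 SRSF2 peaks each, Polr2g had 2 and 1, and Polr2i had 0 and 1. All 4 encode small subunits, and their peaks spanned 24 to 10285 nt, against 87209 nt for Med13. Peak numbers were not corrected for transcript length or RNA level.

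The named genes with peak numbers most like those of Med13 were Smc5, Xpo1 and Flna, by the distance of log2(peaks + 1) over the 2 libraries (0.161, 0.190 and 0.344). Smc5 encodes an ATPase of a genome stability complex and had 46 SRSF1 and 36 SRSF2 peaks over 65.0 kb. Xpo1 encodes the main nuclear export receptor and had 43 and 35 over 40.5 kb. Flna encodes the actin crosslinker filamin A and had 45 and 51 over 22.5 kb.

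Med13 had the widest span of these 4 genes and the lowest share of overlapped peaks of both proteins. Its 40.9% of SRSF1 peaks overlapped (26.3 to 56.8) stands beside 56.5% in Smc5 (41.1 to 71.1), 58.1% in Xpo1 (42.1 to 73.0) and 68.9% in Flna (53.4 to 81.8). Its 45% of SRSF2 peaks overlapped (29.3 to 61.5) stands beside 77.8% in Smc5 (60.8 to 89.9), 74.3% in Xpo1 (56.7 to 87.5) and 54.9% in Flna (40.3 to 68.9). The intervals of Med13 meet those of all 3 genes for both proteins, for SRSF2 in Smc5 only barely (61.5 against 60.8). Meeting intervals do not show equal shares, and the differences were not tested. The median SRSF1 score was 7 in Med13, against 12 in Smc5, 12 in Xpo1 and 18 in Flna, and the median SRSF2 score was 9, against 10, 15 and 22. The median width of its peaks was 18 nt, against 25, 23.5 and 21 nt. Med13 thus had the lowest median scores, the narrowest peaks and the lowest overlap of these genes. The lowest listed score also differed by gene. For SRSF1 and SRSF2 it was 6 and 7 in Med13, 7 and 7 in Smc5, 9 and 10 in Xpo1, and 14 and 17 in Flna. The medians therefore start from different lowest scores, and the part of this in their differences was not tested. Among the other 3, the order of score and overlap differed by protein. For SRSF2, Smc5 had the lowest median of these, 10, with 77.8% overlapped, and Flna the highest, 22, with 54.9%. For SRSF1, Smc5 and Xpo1 had a median of 12 with 56.5% and 58.1% overlapped, and Flna 18 with 68.9%. The part of score and width in the overlap was not tested.

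Over all 94 genes with at least 30 peaks, Med13 stood below the middle for overlap. The median gene had 52.6% of its SRSF1 peaks overlapped (6.25 to 90), and 66 genes were above Med13. For SRSF2 peaks the median was 47.2% (6.25 to 85.7), and 51 genes were above it.

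**Figure D5:**
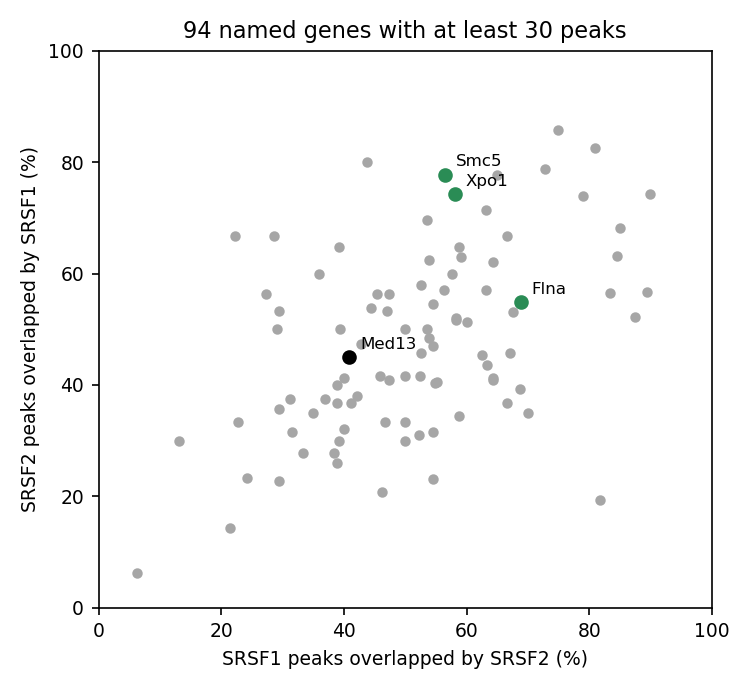
Each point is one of 94 named genes with at least 30 peaks, with the share of its SRSF1 peaks overlapped by SRSF2 (x axis, %) and of its SRSF2 peaks overlapped by SRSF1 (y axis, %). Med13 (black) sits at 40.9% and 45%, below Smc5, Xpo1 and Flna (green) on both axes.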

How the data were processed

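The data are 2 CLIP-seq peak lists, 1 of SRSF1 and 1 of SRSF2, from mouse embryonic fibroblasts. The deposited lists give for each peak its position, host unit, peak number, a whole-number score of at least 4 and a strand. The build is mm9 per the submitters' processing notes. No source used here gives the aligner, the peak caller, its threshold or the meaning of the score, and read depth is unknown. Some numbered peaks are missing from the lists, so partners that were not listed may be missed.

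Positions are printed 1-based. A RefSeq table of GRCm38.p6, used for names only, matched a symbol to 2155 of 2169 accessions. Transcript lengths and motif counts came from the GENCODE mouse annotation of GRCm38, with the longest coding transcript per gene. Overlap needed 1 nt on the same strand. Distances are between midpoints, and the nearest midpoint was sought in the whole other list. The overlap step was tested on simulated data and against bedtools 2.31.1. Other steps used Python 3.11.15, pandas 2.3.3 and scipy 1.17.1. Intervals are exact (Clopper-Pearson) at 95%. With 1 library per protein no test between them was run.

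Med13 and the gene lists were chosen with earlier results of these data known. By rule the text names every member of the Mediator and polymerase lists with a peak, the 3 genes most like Med13 in peak numbers, the 5 highest scores and pairs, the outermost peaks and the ends of the 3 longest gaps. Other peaks and groups were chosen after their values were seen. The alternatives changed the overlap, peak width, merging, score threshold, gene assignment, distance and joining distance.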

Additional observations from a re-analysis of the deposited data

How the results depend on the processing

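Of the 23 alternatives, 19 stayed within the interval of the reported share or within 1.5 times the reported number. The share of SRSF1 peaks overlapped was 61.4%, in place of 40.9%, both when midpoints within 50 nt counted and when every peak was set to 50 nt. The share of SRSF2 peaks overlapped was 60% under both, in place of 45%. With neighbouring peaks merged the shares were 45.9% and 51.4%. With only peaks at or above the list's median score, 17 SRSF1 and 30 SRSF2 peaks were left, of which 52.9% and 30% were overlapped. The SRSF1 share of Med13 peaks was then 36.2% (22.7 to 51.5) in place of 52.4%, and 36.7% of SRSF2 peaks had an SRSF1 midpoint within 50 nt in place of 60%. The lowest score on Med13 was 6 for SRSF1 and 7 for SRSF2, so this threshold removes more SRSF1 peaks. The number of groups ran from 17 (joined within 1000 nt) to 28 (within 200 nt). No paired analysis was possible because each protein has a single library. The number of peaks limits every share, and read depth is unknown.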
